A study of Mus musculus with 4 samples.

Results

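The clustered protocadherin genes of the mouse were examined in neural stem cells carrying floxed alleles of Tut1, Trp53 or both. The genes were selected by symbol alone, as every gene named Pcdha, Pcdhb, Pcdhga, Pcdhgb or Pcdhgc with a member number (or, in the alpha cluster, a C-type number). This gave 58 of the 55487 genes in the table, with 14 in the alpha, 22 in the beta and 22 in the gamma cluster. Neural stem cells from embryonic neocortices were profiled by RNA-seq, with 4 groups and a library for each. Control cells came from a Tut1f/f culture given empty lipid nanoparticles (LNP). The library labelled Tut1 KO came from a Tut1f/f culture, the Trp53 KO library from a Trp53f/f culture and the double KO library from a Tut1f/f;Trp53f/f culture, each given LNP loaded with mRNA for Cre recombinase, which deletes DNA between loxP sites. The series text gives a treatment time of 3 days. Both libraries labelled with a Trp53 KO came from cultures of another genotype than the control, and neither has an empty LNP library of its own here, so the effect of deletion and the difference between cultures cannot be told apart. There were no replicates. No difference could therefore be set against a spread between cultures, no test was run, and every value below describes 1 library.

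Clustered protocadherins are cell surface proteins of the cadherin superfamily that bind their own kind on a neighbouring cell. Neurons express different combinations of them, which give single neurons a surface identity used in dendrite self-avoidance and circuit assembly. In the alpha and gamma clusters a row of variable first exons, each with its own promoter, is spliced to a few constant exons at the 3′ end that encode a common cytoplasmic tail. Beta genes lack constant exons. The C-type members at the end of the alpha and gamma clusters are regulated apart from the others and are expressed more broadly, while choice among the other members involves DNA methylation, CTCF binding and cohesin.

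The 3 clusters lie in a row on the plus strand of chromosome 18 (GRCm38). The alpha cluster spans positions 36930184 to 37187661, the beta cluster 37264938 to 37524479 and the gamma cluster 37661793 to 37841873. The annotation gives the 14 alpha members 3 common exons of 59, 89 and 2712 bases, and the 22 gamma members 3 common exons of 59, 89 and 1971 bases. Shared bases made up between 38.0% and 54.9% of the exon bases of an alpha member, and between 27.8% and 66.8% of those of a gamma member. Only 2 of the 22 beta members, the neighbours Pcdhb21 and Pcdhb22, shared any exon bases, 455 in number. How reads in shared exons were divided among genes is not given in the sources used here. The level of a single alpha or gamma member is therefore uncertain, and sums over each cluster were taken beside it. Such a sum is not fully free of that division, because TPM divides by transcript length and the members differ in length. The values are in TPM (transcripts per 1000000 transcripts), which states a gene's share of all transcripts after division by transcript length and adds up to the same total in every library.

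Before the levels of the clusters, 2 facts of the libraries bear on every comparison. Tut1 had 12.2 TPM in control cells, 29.8 TPM in those labelled Tut1 KO, 12.5 TPM in Trp53 KO and 13.7 TPM in double KO cells, so its level was not lower under the Tut1 KO label. By the study's account Cre removes a single exon of Tut1 and the rest of the mRNA remains, so a gene-level value cannot check the deletion, and the study's own measurements of deletion efficiency were not used here. Tut1 KO and double KO are used below as names that the labels give to libraries, and every direction drawn from them rests on those labels. Trp53 had 119.9 TPM and 100.4 TPM in control and Tut1 KO cells and 39.7 TPM and 41.9 TPM in the others. Xist was at 188.1 TPM in Tut1 KO and 204.0 TPM in Trp53 KO cells and near 0 in the other 2, whereas Ddx3y, Eif2s3y, Kdm5d and Uty, all on the Y chromosome, were listed at 0 in the former pair and lay between 5.54 TPM and 62.0 TPM in control and double KO cells. The control and double KO libraries thus share a feature that sets them apart from the other 2, and in the 4 pairs across this split it cannot be told apart from the group.

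The summed level over the 58 genes was 384.5 TPM in control, 123.6 TPM in Tut1 KO, 335.1 TPM in Trp53 KO and 348.2 TPM in double KO cells. Most of it came from the gamma cluster, whose sum was 349.2 TPM in control, 89.0 TPM in Tut1 KO, 296.6 TPM in Trp53 KO and 313.0 TPM in double KO cells. The library labelled Tut1 KO thus stood below the others, with the highest and the lowest gamma sum 3.92-fold apart. In these bulk libraries, fewer cells expressing a gene and less RNA per cell cannot be told apart. The beta cluster summed to 27.9 TPM in control, 30.5 TPM in Tut1 KO, 29.2 TPM in Trp53 KO and 31.1 TPM in double KO cells, a spread of 1.12-fold. The alpha cluster was the lowest, at 7.50 TPM in control, 4.02 TPM in Tut1 KO, 9.34 TPM in Trp53 KO and 4.11 TPM in double KO cells. Its sum was lower in both libraries whose label includes the Tut1 KO.

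**Figure D1:**
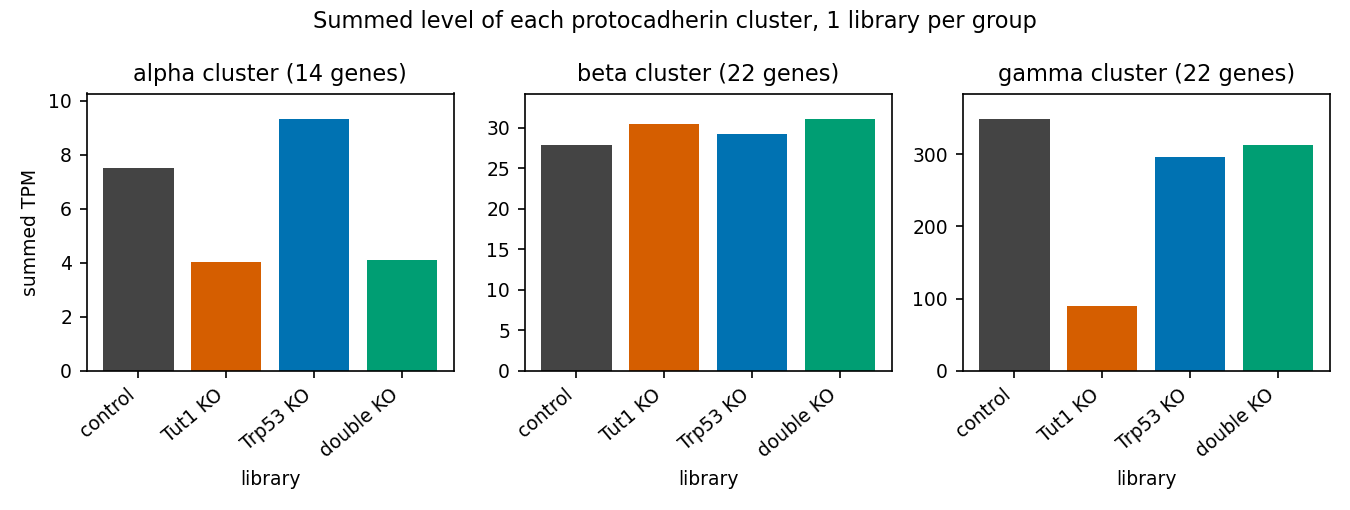
Summed TPM (vertical axes from 0, a different scale in each panel) of the alpha, beta and gamma clusters in the 4 libraries, with 1 bar per library and no error because there was 1 library per group. The beta bars stay between 27.9 and 31.1 TPM, whereas the gamma bar of the Tut1 KO library stands at 89.0 TPM against 296.6 to 349.2 TPM in the others.

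Differences were taken between values of log2(TPM + 1), a scale that understates the change of low genes, and a member or sum was called where the difference reached 1 in either direction. On this scale the gamma sum differed by -1.96 between the Tut1 KO and control libraries and by 0.08 between the double KO and Trp53 KO libraries, the 2 pairs that differ in the Tut1 label. The Trp53 KO library differed from the control by -0.23 and that of the double KO by -0.16. The alpha sum differed by -0.76 between Tut1 KO and control and by -1.02 between double KO and Trp53 KO, a call that was lost with a pseudocount of 5 (-0.65). The beta sum differed by 0.13 and 0.09 in the same pairs. The 6 pairs of libraries share their members, so these differences are not independent of each other.

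A single gene made up most of the gamma cluster in every library, and it was not always the same one. Pcdhgb1 (ENSMUSG00000103037) had 231.6 TPM in control, 0.66 TPM in Tut1 KO, 0.83 TPM in Trp53 KO and 228.6 TPM in double KO cells. It was therefore high in 2 libraries and near the floor in the other 2, with the highest and lowest values 353-fold apart. Pcdhga9 (ENSMUSG00000102440), a member of the gamma a subfamily further along the cluster, had 0.54 TPM in control, 1.85 TPM in Tut1 KO, 213.3 TPM in Trp53 KO and 0.39 TPM in double KO cells. Its level in the Trp53 KO library was 542-fold that in the double KO library, and close to that of Pcdhgb1 in the libraries where Pcdhgb1 was high. Neither gene was high in the library labelled Tut1 KO, and in no library were both high.

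As a share of the gamma sum, Pcdhgb1 took 66.3% in control and 73.0% in double KO cells, and Pcdhga9 took 71.9% in the Trp53 KO library. Pcdhgc3 led in the library labelled Tut1 KO, with 65.9%. Pcdhgc3 (ENSMUSG00000102918), a C-type member, had 81.4 TPM in control, 58.7 TPM in Tut1 KO, 57.8 TPM in Trp53 KO and 64.5 TPM in double KO cells. It was the only one of the 58 genes with at least 5 TPM in all 4 libraries, and its highest and lowest values were 1.41-fold apart. An effective number of members, the inverse of the summed squared shares, came to 2.02 in control, 2.26 in Tut1 KO, 1.80 in Trp53 KO and 1.74 in double KO cells, out of 22.

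**Figure D2:**
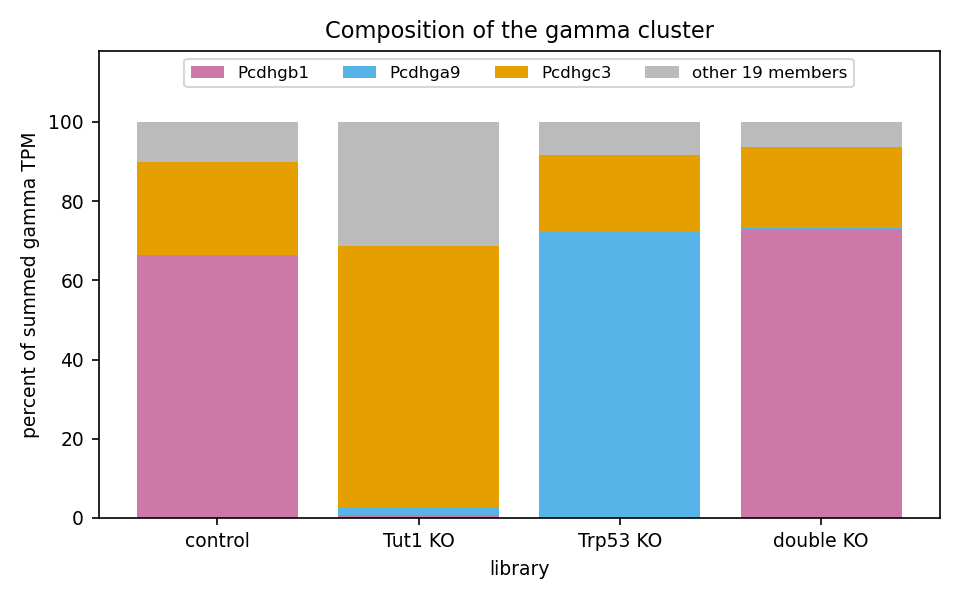
Share of the summed gamma TPM (percent, vertical axis) taken by Pcdhgb1, Pcdhga9, Pcdhgc3 and the other 19 members in each library (horizontal axis, 1 stacked bar per library). Pcdhgb1 fills 66.3% of the control bar and 73.0% of the double KO bar, Pcdhga9 fills 71.9% of the Trp53 KO bar, and Pcdhgc3 leads in the Tut1 KO bar with 65.9%.

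Without Pcdhgb1 and Pcdhga9, the remaining 20 gamma members summed to 117.0 TPM in control, 86.5 TPM in Tut1 KO, 82.4 TPM in Trp53 KO and 84.0 TPM in double KO cells, a comparison added after the values were seen. The 3 libraries given Cre then lay between 82.4 TPM and 86.5 TPM, and the difference between Tut1 KO and control was -0.43. The gap in the gamma sum between the Tut1 KO library and the others was thus made up largely of 1 gene in each case, Pcdhgb1 for control and double KO cells and Pcdhga9 for Trp53 KO cells. By subfamily, the 12 gamma a genes summed to 26.6 TPM in control, 15.5 TPM in Tut1 KO, 223.8 TPM in Trp53 KO and 13.1 TPM in double KO cells. The 7 gamma b genes summed to 239.2 TPM, 12.2 TPM, 14.1 TPM and 234.0 TPM in the same order of libraries. The 3 gamma C-type genes stayed between 58.7 TPM in Trp53 KO and 83.4 TPM in control cells.

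After these, the highest gamma members were Pcdhga2 and Pcdhgb4. Pcdhga2 had 12.9 TPM in control, 1.83 TPM in Tut1 KO, 0.54 TPM in Trp53 KO and 0.75 TPM in double KO cells, so that the control stood apart from all 3 libraries given Cre. Pcdhgb4 had 1.07 TPM in control, 4.31 TPM in Tut1 KO, 9.43 TPM in Trp53 KO and 0.69 TPM in double KO cells. It was thus higher in the same 2 libraries in which Pcdhgb1 was near the floor. Pcdhgb8, which the annotation lists as a polymorphic pseudogene, had 1.003 TPM in control, 1.77 TPM in Tut1 KO, 0.15 TPM in Trp53 KO and 0.19 TPM in double KO cells. Pcdhga4 had 0.057 TPM in control, 1.28 TPM in Tut1 KO, 0.51 TPM in Trp53 KO and 0.088 TPM in double KO cells. Pcdhga4 and its neighbour Pcdhgb1 had 3157 and 3154 shared exon bases, more than any other gamma member. The part of these shared bases in their values was not tested. The other 16 gamma members, Pcdhgc3 among them, differed by less than 1 on the log2 scale between any pair of libraries. Of the other C-type members, Pcdhgc4, known for a role in neuronal survival, had 1.02 TPM, 1.62 TPM, 0.32 TPM and 0.65 TPM in the same order of libraries, and Pcdhgc5 had 0.97 TPM, 1.001 TPM, 0.54 TPM and 0.71 TPM.

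The 5 gamma members Pcdhga2, Pcdhgb1, Pcdhgb4, Pcdhga9 and Pcdhgb8 share a feature of the annotation that was noticed after their values were seen. Their annotated 3′ ends lie at position 37841870, 3 bases before the end at 37841873 that the other 17 gamma members share. All 5 differed by at least 1 on the log2 scale between some pair of libraries. Of the other 17, 15 reached 1 TPM in some library and 1 of these (Pcdhga4, 6.67%) differed by as much, beside 11.5% of the 15095 genes that reached 1 TPM. Summed, the 5 had 247.2 TPM in control, 10.4 TPM in Tut1 KO, 224.2 TPM in Trp53 KO and 230.6 TPM in double KO cells. The other 17 summed to 102.0 TPM, 78.6 TPM, 72.3 TPM and 82.4 TPM in the same order, 1.41-fold from highest to lowest. Each gamma leader other than Pcdhgc3 was therefore one of the 5 genes with the shorter end. The part of the annotated ends in the single-gene values was not tested.

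**Figure D3:**
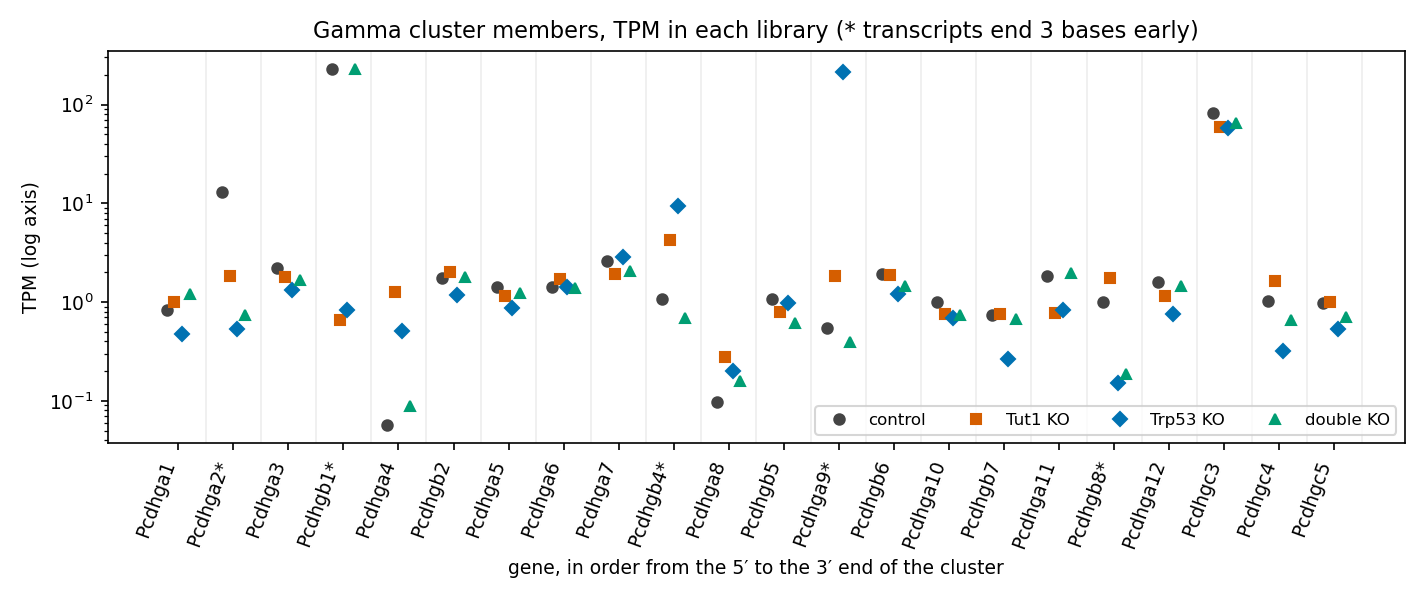
TPM of the 22 gamma members in each library (logarithmic vertical axis), in their order along the cluster, with 1 marker per library and an asterisk after the 5 genes whose annotated transcripts end 3 bases before the others. Pcdhgb1 stands at 231.6 and 228.6 TPM in control and double KO cells, Pcdhga9 at 213.3 TPM in Trp53 KO cells, and the markers of Pcdhgc3 lie together between 57.8 and 81.4 TPM.

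Among the beta genes, which have no constant exons, Pcdhb20 was the highest in every library, at 5.79 TPM in control, 4.29 TPM in Tut1 KO, 4.73 TPM in Trp53 KO and 5.71 TPM in double KO cells. Pcdhb18 had 3.16 TPM, 2.27 TPM, 2.73 TPM and 3.27 TPM, and Pcdhb10 had 2.99 TPM, 2.80 TPM, 3.31 TPM and 3.67 TPM in the same order. For these 3 genes the highest and lowest values were between 1.31-fold and 1.44-fold apart. Pcdhb11 had 1.89 TPM, 2.54 TPM, 2.72 TPM and 3.22 TPM, and Pcdhb5 had 2.33 TPM, 2.28 TPM, 1.55 TPM and 2.38 TPM. The beta sum was spread over many genes, with an effective number of members between 10.6 in control and 13.1 in Tut1 KO cells, and no beta gene took more than 20.8% of it. Across the 20 beta genes without shared exons, Spearman's rho between the TPM of a pair of libraries lay between 0.81 and 0.95, a description over genes that share a library and are not replicates.

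Of the 12 beta genes that reached 1 TPM in some library, 2 (16.7%) differed by at least 1 on the log2 scale between some pair of libraries, beside 11.5% of all genes that reached it. Pcdhb22 had 0.44 TPM in control, 3.35 TPM in Tut1 KO, 3.37 TPM in Trp53 KO and 0.37 TPM in double KO cells. Its overlapping neighbour Pcdhb21 had 0.45 TPM in control and 0.40 TPM in double KO cells and was at 0 in the other 2 libraries, where Pcdhb22 was high. These are the 2 beta genes that share exon bases, which made up 6.88% of the exon bases of Pcdhb22 and 9.67% of those of Pcdhb21. The part of this overlap in their values was not tested. Pcdhb19 was listed at 0 in 3 libraries and at 1.18 TPM in the Trp53 KO library. Pcdhb1, at the 5′ end of the cluster, was listed at 0 in all 4.

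**Figure D4:**
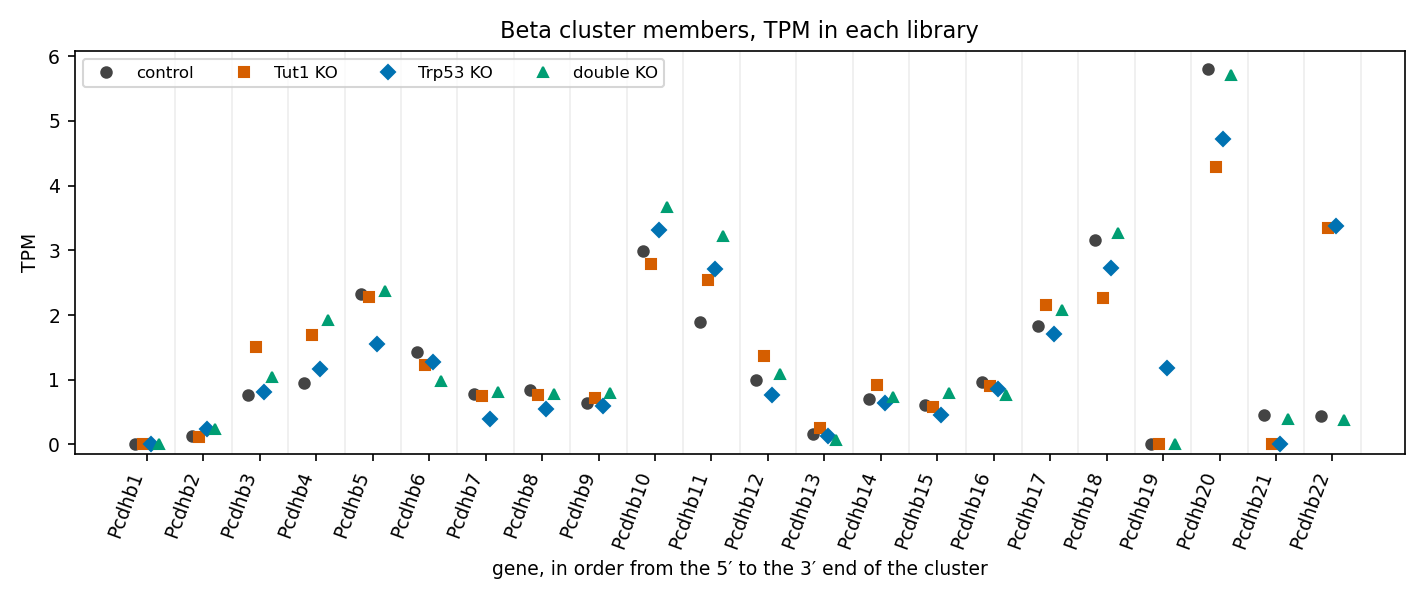
TPM of the 22 beta members in each library (linear vertical axis), in their order along the cluster, with 1 marker per library. Markers of 1 gene lie close together for most genes, such as Pcdhb20 between 4.29 and 5.79 TPM, whereas Pcdhb22 stands at 3.35 and 3.37 TPM in Tut1 KO and Trp53 KO cells and below 0.45 TPM in the others.

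The alpha cluster was carried by 3 genes, and the other 11 stayed below 0.5 TPM in every library. Pcdhac2, a C-type member known for its part in the spacing of serotonergic axons, had 5.40 TPM in control, 1.87 TPM in Tut1 KO, 6.99 TPM in Trp53 KO and 0.80 TPM in double KO cells. It was therefore lower in the library of each pair that carries the Tut1 KO label, by 1.16 on the log2 scale from control to Tut1 KO and by 2.15 from Trp53 KO to double KO. Pcdha1 had 1.63 TPM in control, 1.45 TPM in Tut1 KO, 1.96 TPM in Trp53 KO and 0.0007 TPM in double KO cells. Pcdha6 was listed at 0 in control and Tut1 KO cells, at 0.013 TPM in Trp53 KO and at 2.10 TPM in double KO cells. In the double KO library Pcdha6 thus stood near the level that Pcdha1 had elsewhere. Below these came Pcdha7, at 0.049 TPM in control, 0.37 TPM in Tut1 KO and 0.50 TPM in double KO cells and listed at 0 in Trp53 KO cells. The other C-type member, Pcdhac1, had 0.017 TPM, 0.015 TPM, 0.034 TPM and 0.41 TPM in the order of libraries used above.

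Of the 58 genes, 35 reached 1 TPM in some library and 12 in all 4. The number at or above 1 TPM was 25 in control, 29 in Tut1 KO, 20 in Trp53 KO and 21 in double KO cells. The other 23 genes stayed below 1 TPM throughout and entered no count of calls. TPM keeps no depth, so the depth of each library cannot be read from the table, and no interval for counting error can be given for these low values.

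A member was counted in a pair of libraries where it reached 1 TPM in at least 1 of them. A member below 1 TPM in the other library was counted only through the library in which it was high, so the counts are read against those of all genes under the same rule. The counts given here and in the pairs below depend on low values. With a pseudocount of 5 they fell to between 1 and 4 in the 6 pairs, and with a minimum of 10 TPM to between 1 and 3. Between Tut1 KO and control, 6 of 33 members passed the threshold, beside 4.73% of 14640 genes. Pcdhb22, Pcdhgb4 and Pcdhga4 were higher in the Tut1 KO library, by 1.59, 1.36 and 1.11 on the log2 scale. Pcdhgb1, Pcdhga2 and Pcdhac2 were lower, at -7.13, -2.30 and -1.16. The median difference over the 33 members was -0.03, beside -0.09 over all genes tested.

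Between double KO and Trp53 KO, 8 of 28 members passed, beside 3.87% of 14585 genes. Pcdhgb1 (6.97) and Pcdha6 (1.61) were higher in the double KO library. Pcdhga9 (-7.27), Pcdhgb4 (-2.63), Pcdhac2 (-2.15), Pcdhb22 (-1.67), Pcdha1 (-1.57) and Pcdhb19 (listed at 0 in the double KO library) were lower. The median over the 28 members was 0.18, beside 0.04 over all genes. Set beside the values of the Tut1 KO and control pair, Pcdhac2 was lower in both pairs, while Pcdhgb1, Pcdhgb4 and Pcdhb22 stood in opposite directions.

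Between Trp53 KO and control, 6 of 29 members passed, beside 4.42% of 14586 genes. Pcdhga9 (7.12), Pcdhgb4 (2.33), Pcdhb22 (1.60) and Pcdhb19 (listed at 0 in the control) were higher in the Trp53 KO library, and Pcdhgb1 (-6.99) and Pcdhga2 (-3.18) were lower. Between double KO and control, 4 of 30 passed, beside 4.23% of 14647 genes. They were Pcdha6 (listed at 0 in the control), which was higher in the double KO library, and Pcdhga2 (-3.00), Pcdhac2 (-1.83) and Pcdha1 (-1.40), which were lower. Of the 10 beta genes counted in this last pair, 0 passed.

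Between double KO and Tut1 KO, 8 of 32 members passed, beside 4.64% of 14601 genes, with Pcdhgb1 (7.12) and Pcdha6 (listed at 0 in the Tut1 KO library) higher in the double KO library. Pcdhb22 (-1.66), Pcdhgb4 (-1.65), Pcdha1 (-1.29), Pcdhgb8 (-1.22), Pcdhga4 (-1.07) and Pcdhga9 (-1.03) were lower. Between Trp53 KO and Tut1 KO, 4 of 30 passed, beside 5.16% of 14586 genes. Pcdhga9 (6.23), Pcdhac2 (1.48) and Pcdhb19 (listed at 0 in the Tut1 KO library) were higher in the Trp53 KO library, and Pcdhgb8 (-1.27) was lower. Altogether 11 members passed in at least 1 of the 6 pairs, 3 of them alpha, 2 beta and 6 gamma genes. Of the 35 members that reached 1 TPM in some library, 31.4% spanned at least 1 on the log2 scale over the 4 libraries, beside 11.5% of the 15095 genes that did so in the whole table. By cluster, the share was 3 of 3 alpha, 2 of 12 beta (16.7%) and 6 of 20 gamma genes. It was 6.67% of the 15 gamma members with the longer annotated end and 9.09% of the 11 beta members without shared exons, subsets that were set apart after the values were seen and leave out called members.

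**Figure D5:**
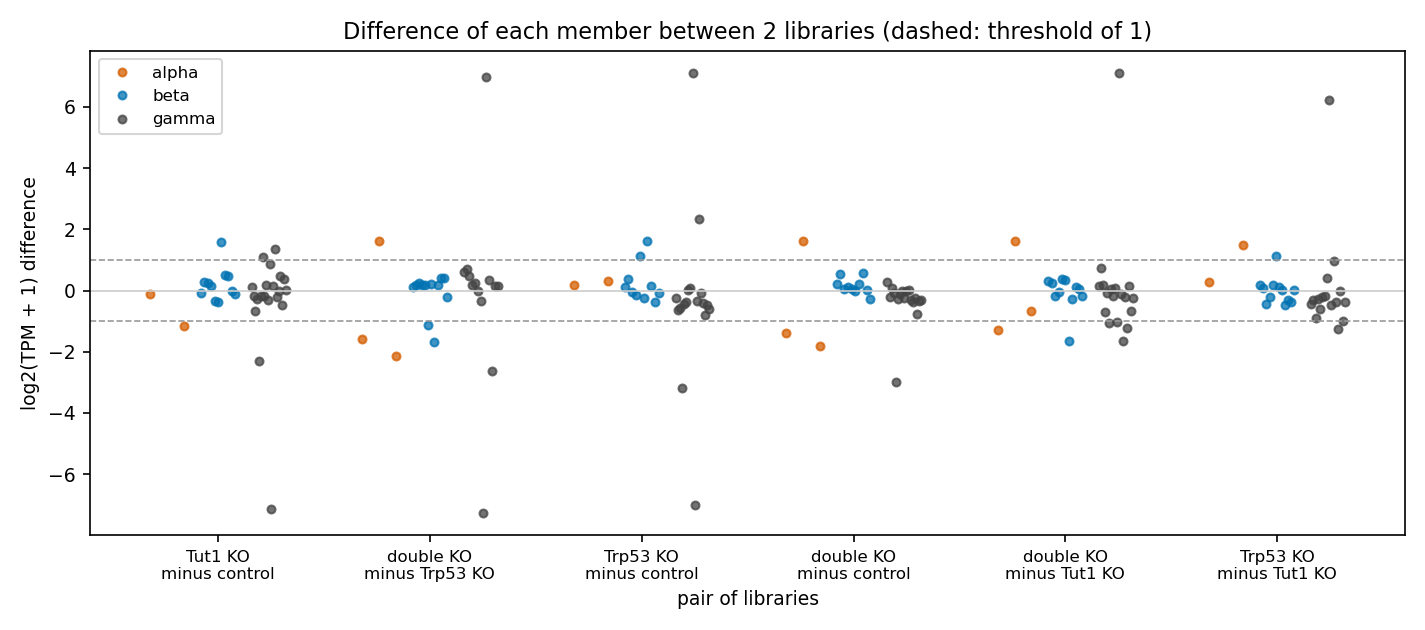
Difference in log2(TPM + 1) (vertical axis) of every member counted in each of the 6 pairs of libraries (horizontal axis), with 1 point per gene, coloured by cluster, and dashed lines at the threshold of 1 in each direction. Most points lie between the dashed lines, and the few beyond 5 in either direction are Pcdhgb1 and Pcdhga9.

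The cell type was checked by its markers. All 10 neural stem cell markers were at 1 TPM or more in every library, with Fabp7, Vim and Nes the highest in the control at 9441 TPM, 1875 TPM and 417.1 TPM. None of them was called in any pair, beside 11.5% of the 15095 genes that reached 1 TPM. Counts of called markers in lists of this size lie near that share, and nothing is read from them. The 12 neuronal markers summed to between 174.1 TPM in Tut1 KO and 248.5 TPM in control cells. Of the 12, 7 were at 1 TPM or more in all 4 libraries, and the other 5 were below 1 TPM throughout, with Slc17a6 listed at 0. Map2 made up most of the sum, at 141.0 TPM to 208.1 TPM, followed by Tubb3 at 11.0 TPM to 12.6 TPM. Snap25 was the only neuronal marker called, at 9.65 TPM in control, 3.38 TPM in Tut1 KO, 10.5 TPM in Trp53 KO and 6.06 TPM in double KO cells. Gad1, Rbfox3, Dcx and Syt1 lay between 1.72 TPM and 7.37 TPM. The 6 astrocyte markers summed to between 132.6 TPM and 143.5 TPM, mostly Aldh1l1 and Gja1, with Gfap and Aqp4 below 1 TPM throughout. The 8 oligodendrocyte lineage markers summed to between 1565 TPM and 1765 TPM, mostly Olig1 and Olig2, with Mog below 1 TPM throughout. All 6 microglial, 5 endothelial and 6 mesenchymal markers were below 1 TPM throughout.

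Pcdhgb1 was called higher, and Pcdhgb4 and Pcdhb22 lower, in all 4 pairs that set a library with transcripts of the Y chromosome (control or double KO) against one with Xist (Tut1 KO or Trp53 KO). These were 3 of the 23 members counted in all 4 pairs, beside 74 of 13916 genes (0.53%). The comparison was added after the values of these members were seen, so nothing is read from the 2 shares. Pcdhgb1 and Pcdhb22 were below 1 TPM where they were low and were counted only through the libraries where they were high. All 3 share exon bases with other members. Pcdhga4 was also lower in control and double KO cells (0.057 TPM and 0.088 TPM) than in the other 2 libraries (1.28 TPM and 0.51 TPM), but was called in 2 of these pairs and was below the minimum of 1 TPM in the others. Pcdhga4 and its neighbour Pcdhgb1 have the most shared exon bases of the gamma members, so their values may not be separate. Pcdhga9, Pcdhga2 and Pcdhac2 did not follow that split. With a pseudocount of 5, 1 member was called between double KO and Tut1 KO, and Pcdhgb4 and Pcdhb22 lost their calls in that pair. The part of the split in the values of Pcdhgb1, Pcdhgb4 and Pcdhb22 was not tested.

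The GC content of transcripts moved with some differences. Across protein-coding genes, Spearman's rho between GC content and the difference was 0.41 for Tut1 KO minus control and -0.44 for double KO minus Tut1 KO. It was -0.19 for double KO minus Trp53 KO, 0.17 for Trp53 KO minus control, -0.02 for double KO minus control and -0.28 for Trp53 KO minus Tut1 KO. The longest transcripts of gamma members had a median GC content of 53.04%, against 46.0% for beta and 47.3% for alpha members and 49.7% over 12197 protein-coding genes. Pcdhgb1, Pcdhga9 and Pcdhgc3 had 53.3%, 52.8% and 55.4%. The part of GC content in the differences of the members was not tested.

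Genes that act on the clusters were examined as a list of 12 insulation and cohesin genes and a list of 16 genes of DNA methylation and chromatin silencing. Over the 6 pairs, 11.5% of the 15095 genes that reached 1 TPM were called in some pair, and the counts of this and the following lists stand beside that share. Of the 12, Pds5a was the only one called. Pds5a, a regulator of cohesin on chromatin, had 41.5 TPM in control, 9.70 TPM in Tut1 KO, 37.1 TPM in Trp53 KO and 15.3 TPM in double KO cells. It was lower by 1.99 on the log2 scale from control to Tut1 KO and by 1.22 from Trp53 KO to double KO cells. Ctcf, the insulator protein bound at protocadherin promoters, had 68.7 TPM, 50.2 TPM, 58.5 TPM and 59.3 TPM, and the cohesin subunit gene Rad21 had 187.9 TPM, 129.7 TPM, 170.6 TPM and 184.2 TPM in the same order. The median over the 12 genes was -0.45 between Tut1 KO and control, beside -0.09 over all genes, and 0.14 between double KO and Trp53 KO, beside 0.04. Of the 16 silencing genes, Lrif1, which encodes a partner of the chromosomal protein Smchd1, was the only one called, beside the same 11.5% of all genes. It had 8.76 TPM, 16.4 TPM, 7.67 TPM and 12.9 TPM, and was called between the Trp53 KO and Tut1 KO libraries alone. Smchd1, which takes part in silencing of the protocadherin clusters, had 24.1 TPM, 16.8 TPM, 20.8 TPM and 23.4 TPM. The median over the 16 genes was -0.37 between Tut1 KO and control and 0.05 between double KO and Trp53 KO, beside the same -0.09 and 0.04. Low medians between Tut1 KO and control were not particular to these lists. Protocadherins outside the clusters had -0.35, and classical cadherins and catenins -0.30. Neural stem cell markers had -0.12, while markers of neurons (-0.06), astrocytes (0.02) and the oligodendrocyte lineage (0.006) lay above -0.09.

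Downstream of the cytoplasmic tail, 19 signalling partners and processing enzymes were listed, of which 18 reached 1 TPM and 4 were called in some pair, beside 11.5% of all genes. Rac1, a small GTPase that drives actin assembly, had 37.8 TPM in control, 234.0 TPM in Tut1 KO, 248.0 TPM in Trp53 KO and 262.8 TPM in double KO cells, so the control stood apart. Abi2, a subunit of the WAVE complex that Rac1 activates, had 3.11 TPM, 45.7 TPM, 59.8 TPM and 2.77 TPM in the same order. It was high in the 2 libraries with Xist and was called in all 4 pairs across that split, but in neither pair within it. The part of the split in its values was not tested. Cyfip2, another WAVE complex subunit, had 17.0 TPM, 13.2 TPM, 12.01 TPM and 3.34 TPM. Adam10, the protease that sheds gamma protocadherins from the surface, had 46.1 TPM, 22.2 TPM, 35.0 TPM and 58.3 TPM. The kinase gene Ptk2, whose product binds the common tails, lay between 59.4 TPM and 72.1 TPM and was not called. The median over the 18 genes was -0.21 between Tut1 KO and control and 0.06 between double KO and Trp53 KO, beside -0.09 and 0.04 over all genes.

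Of 12 protocadherin genes outside the clusters, 9 reached 1 TPM and 1 was called, a share near the 11.5% of all genes. Pcdh9 had 3.17 TPM in control, 6.05 TPM in Tut1 KO, 1.08 TPM in Trp53 KO and 7.87 TPM in double KO cells. Pcdh10, the highest of the list, had 34.8 TPM, 26.0 TPM, 28.6 TPM and 34.8 TPM. Of 14 classical cadherins and catenins, 12 reached 1 TPM and 0 were called in any of the 6 pairs. At lists of this size, 0 or 1 called genes lie near the share of all genes, and nothing is read from these counts. Cdh2, the N-cadherin gene of neural stem cells, had 73.3 TPM in control, 44.6 TPM in Tut1 KO, 64.4 TPM in Trp53 KO and 65.1 TPM in double KO cells.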

How the data were processed

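RNA-seq of 4 libraries (1 per group) was deposited as 1 table of TPM per gene, computed by the authors. The submitters' processing notes name Trimmomatic, HISAT2, StringTie and the build mm10 without versions. The labels name a stranded short-read mRNA kit, whereas the series text describes long-read sequencing, and which of them gave the table was not settled. TPM keeps no depth. Sums, shares and differences of log2(TPM + 1) were computed from the deposited TPM, with a minimum of 1 TPM in at least 1 library of a pair and a threshold of 1. Medians of all genes differed by less than 0.1 on the log2 scale between libraries. Ensembl IDs were matched to GENCODE M21 (GRCm38) for positions, exons and GC content. The members and lists were chosen with earlier results of these data known. Values were given in full for the 5 highest members of each cluster, called members that reached 5 TPM, C-type members and called genes of the pathway lists. Other called members were added. Alternatives were pseudocounts of 0.1 and 5, other minimums, a 1.5-fold threshold, medians set to 0, quantile normalization and the addition of genes sharing exons. Gamma sums without named members, counts over beta genes and the comparison by Y-linked genes were added after the values were seen. The code was tested on simulated libraries. Tables were handled with pandas 2.3.3 and numpy 2.4.6 under Python 3.11.15, correlations with scipy 1.17.1 and plots with matplotlib 3.10.9.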

Additional observations from a re-analysis of the deposited data

Results flagged for a closer look

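For 3 members, the difference between Tut1 KO and control and the difference between double KO and Trp53 KO had opposite signs and were both beyond the threshold. The first difference less the second was -14.11 on the log2 scale for Pcdhgb1, 3.98 for Pcdhgb4 and 3.27 for Pcdhb22. With 1 library per group, the difference between these effects was not tested, and both rest on the Tut1 labels. Pcdhgb1 and Pcdhgb4 share exons with the other gamma members and Pcdhb22 with Pcdhb21, and all 3 followed the presence of Y-linked transcripts in the libraries. With a pseudocount of 5, 2 members were called between Tut1 KO and control, and Pcdhgb4 and Pcdhb22 were not among them.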

How the results depend on the processing

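The single-member levels of the alpha and gamma clusters rest on an unstated division of shared reads, all values on 1 library per group, and their precision on a depth that TPM does not keep. No paired analysis was possible because each group had 1 library and no test was run. Quantile normalization and the addition of genes sharing exons left every cluster sum within 0.5 on the log2 scale of its value above and on the same side of the threshold, as did a pseudocount of 0.1. With a pseudocount of 5, the alpha sum differed by -0.65 between double KO and Trp53 KO and by 0.67 between Trp53 KO and Tut1 KO, and with medians set to 0 the latter was 0.99 (1.04 above), below the threshold. Without Pcdhga9 and Pcdhgb1, the gamma sum differed by -0.43 between Tut1 KO and control, and its sign turned to -0.042 between double KO and Tut1 KO (1.80 above) and to -0.069 between Trp53 KO and Tut1 KO (1.72 above). Over the 17 members with the longer end, these differences were -0.37, 0.067 and -0.12. In the order of pairs used in the text, the members called (6, 8, 6, 4, 8 and 4) became 2, 2, 3, 1, 1 and 1 with a minimum of 10 TPM, where fewer members are counted. They became 2, 4, 4, 1, 1 and 1 with a pseudocount of 5, and 1, 2, 2, 0, 1 and 1 over beta genes alone. For Trp53 KO against Tut1 KO they became 8 with a pseudocount of 0.1 and 8 with a 1.5-fold threshold. Dropping the minimum, quantile normalization and setting medians to 0 kept each count within 1.5-fold. Members above the floor numbered 43, 44, 45 and 45 at 0.1 TPM, in the order of libraries used in the text, and 5, 1, 4 and 3 at 5 TPM.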

Other observations

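Spearman's rho between order from the 5′ end and mean TPM was 0.16 over 14 alpha, 0.21 over 22 beta and -0.25 over 22 gamma genes, as a description over genes that are not replicates. Within single libraries it lay between -0.14 in Tut1 KO and 0.50 in double KO cells for alpha, between -0.004 in double KO and 0.35 in Trp53 KO cells for beta, and between -0.17 in control and -0.08 in Tut1 KO cells for gamma genes. Across the 17 gamma members with the longer annotated end, rho between the TPM of a pair of libraries lay between 0.63 and 0.91, and across all 22 between 0.24 and 0.86. Gm38182, a gene that shares exons with all 22 gamma members, had 3.00 TPM in control, 0.78 TPM in Tut1 KO, 0.77 TPM in Trp53 KO and 1.27 TPM in double KO cells. Genes annotated as sharing exons with both alpha and gamma members (Gm37013 and Gm37388) were listed at 0 in all 4.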
